A study of Homo sapiens with 6 samples.

Results

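The clustered replication-dependent histone genes encode the linker histone H1 and the core histones H2A, H2B, H3 and H4. They were followed in Meg-01 cells, an established human megakaryoblastic cell line, with and without propionate (C3), a fatty acid with a short chain that intestinal microbes produce. Members were the rows of the gene count table whose identifier carries a symbol from H1-1 to H1-6, or H2AC, H2BC, H3C or H4C followed by a number. They came to 65 of the 58735 rows, namely 6 H1, 15 H2A, 18 H2B, 11 H3 and 15 H4 genes. RNA was sequenced from untreated control cells (3 libraries) and from cells given 500 µM sodium propionate (3 libraries), with no other agent or allele in either group. Treatment lasted 48 h by the labels of the samples, and no time is listed for the control libraries. The methods mention both 24 h and 48 h. The study describes the libraries of a group as technical replicates of a single cell line, so p-values measure the spread between these libraries and may not hold the variation between separate cultures. SLBP, which binds the 3′ end of histone mRNA, and NPAT, which activates histone gene transcription, were added to the comparison.

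DNA that is copied in S phase has to be packed into new nucleosomes, and the clustered genes supply the histones for it. Their mRNAs lack a poly(A) tail in most cases and end instead just after a short stem-loop, which SLBP and the U7 small nuclear ribonucleoprotein use to make the end and which also marks the mRNA for decay when DNA synthesis stops. Some clustered genes additionally give polyadenylated transcripts, mainly in cells that leave the cell cycle, and the replacement variants such as H3-3B are mostly polyadenylated and made throughout the cycle.

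The stem-loop is shown first because it defines the class. A search of GRCh38 after the stop codon found it in 62 of the 65 members, and the other 3 (H2BC10, H3C6 and H4C13) had no match to the form searched. The sequences below run 5′ to 3′ on the coding strand, with the stem-loop in capitals and 5 flanking bases on each side. They stand for the 4 members with the most counts, and for H2BC5, H3C10 and H4C8.
H2BC12: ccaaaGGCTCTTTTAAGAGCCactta
H1-2: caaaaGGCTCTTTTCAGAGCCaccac
H2AC6: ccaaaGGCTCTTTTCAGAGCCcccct
H4C9: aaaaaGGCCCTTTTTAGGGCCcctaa
H2BC5: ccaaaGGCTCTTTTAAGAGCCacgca
H3C10: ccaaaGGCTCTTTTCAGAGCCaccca
H4C8: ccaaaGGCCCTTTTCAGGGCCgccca
The capitals lie at chr6:27146366-27146381 (minus strand) for H2BC12, chr6:26055744-26055759 (minus strand) for H1-2, chr6:26124669-26124684 (plus strand) for H2AC6 and chr6:27139654-27139669 (plus strand) for H4C9. They lie at chr6:26158587-26158602 (plus strand) for H2BC5, chr6:27810516-27810531 (plus strand) for H3C10 and chr6:26285131-26285146 (minus strand) for H4C8. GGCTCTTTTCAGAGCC was the most frequent form, with 36 members of the H1, H2A, H2B and H3 types. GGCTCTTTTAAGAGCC was found in 9 members, 5 of them H2B genes. The H4 genes had forms of their own, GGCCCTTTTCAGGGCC in 10 members and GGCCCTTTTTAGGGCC in 4.

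The promoters of the 3 members with the most counts of H2B, H2A and H1 are shown because these genes differ in the comparison below. They were read from RefSeq (GRCh38.p14), which matched 60 of the 65 members by gene, and run from 250 bases before to 50 bases after the first listed start site. Capitals mark the octamer ATTTGCAT, the element bound by the factor OCT1 (gene POU2F1), and the TATA sequence TATAAA, each searched on both strands, where end bases can be shared between them.
H2BC12 (chr6:27146809-27147108, minus strand): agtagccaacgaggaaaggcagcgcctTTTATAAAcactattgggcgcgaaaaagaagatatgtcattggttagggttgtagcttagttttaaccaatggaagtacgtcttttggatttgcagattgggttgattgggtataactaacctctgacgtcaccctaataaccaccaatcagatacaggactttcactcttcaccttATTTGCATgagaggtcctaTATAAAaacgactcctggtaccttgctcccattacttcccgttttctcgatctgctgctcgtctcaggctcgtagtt
H2AC6 (chr6:26123922-26124221, plus strand): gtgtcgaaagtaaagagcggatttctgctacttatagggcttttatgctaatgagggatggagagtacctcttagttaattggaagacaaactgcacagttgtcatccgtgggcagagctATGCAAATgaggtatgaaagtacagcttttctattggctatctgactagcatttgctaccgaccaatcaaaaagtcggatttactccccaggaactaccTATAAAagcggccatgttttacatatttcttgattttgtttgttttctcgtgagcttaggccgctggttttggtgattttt
H1-2 (chr6:26056421-26056720, minus strand): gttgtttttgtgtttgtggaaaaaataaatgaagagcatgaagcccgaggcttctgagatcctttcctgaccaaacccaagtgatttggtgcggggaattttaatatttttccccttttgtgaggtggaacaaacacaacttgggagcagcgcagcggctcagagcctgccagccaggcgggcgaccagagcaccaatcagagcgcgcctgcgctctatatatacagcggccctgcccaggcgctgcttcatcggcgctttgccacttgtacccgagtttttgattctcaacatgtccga
The octamer lay in 14 of 18 H2B and 11 of 14 H2A promoters, in 1 of 9 H3 promoters (H3C4, whose first listed window is also that of H2AC7) and in 0 of 6 H1 and 0 of 13 H4 promoters, against 1.8% of all 27305 promoters. TATAAA lay in 12 of 18 H2B, 10 of 14 H2A, 7 of 9 H3, 7 of 13 H4 and 3 of 6 H1 promoters, against 11.95% of all. CCAAT, which can share its last bases with the octamer, lay in every H1, H2A, H2B and H3 promoter examined and in 3 of 13 H4 promoters, against 35.7% of all. A match describes the letters in this window and not a bound site.

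The Meg-01 libraries held most of their histone reads in 4 genes. Levels were compared between genes per length, as CPM (counts scaled to the TMM-adjusted library size) divided by the length of the merged exons in kilobases. In control cells H2BC12 had the highest level, 604 ± 44.3 (SD, n = 3), and H1-2 followed at 434 ± 27.6. H4C9 had 153 ± 16.4 and H2AC6 80.6 ± 1.79, and these neighbours in the order were separated by more than their spread. H2BC5 came next at 37.5 ± 1.88, then H2BC11 at 17.8 ± 1.49 and H2AC25 at 17.3 ± 0.641, which did not differ beyond their spread. H2BC8, H3C10 and H2AC8 had levels between 14.2 and 14.8 and could not be ordered. In C3-treated cells the first 2 places were exchanged, with H1-2 at 448 ± 25.6 and H2BC12 at 343 ± 26.2. The exon length of H2BC12 was that of GENCODE, 495 bases, and RefSeq has it run on for 8073 bases past the stem-loop, so its level per length depends on the annotation. Merged GENCODE exons of H2AC6, H2AC25, H3C10 and H2BC11 come to 1668, 1850, 1250 and 1046 bases. RefSeq ends these genes 5 or 6 bases past the stem-loop. Their places in the order, including that of H2AC6 below H4C9, thus depend on the annotation as well. The SD covers the spread between libraries alone. Counts under another annotation were not made.

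Many members were hardly detected. Of the 65, 30 had at least 10 counts in at least 3 libraries and were tested (1 H1, 8 H2A, 12 H2B, 5 H3 and 4 H4 genes). The other 35 had at most 17 counts in any library, and 10 of them had none in all 6. Together those 35 came to 106 ± 15.7 normalized counts in control and 95.6 ± 14.1 in C3 libraries, with overlapping groups. Of the tested members, 25 had at least 10 counts in every library, and H2BC6 passed the filter through its control libraries alone. The single tested H1 gene, H1-2, held 99.8% ± 0.0502 of all H1 counts in control libraries.

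C3 treatment was compared with control to ask which histone genes changed. A gene was called when its adjusted p-value in edgeR's quasi-likelihood test was below 0.01 and its fold change above 1.3, the gates of the study. Of the 30 tested members 8 fell and 0 rose, where 1.47% of all 15078 tested genes were called lower and 5.05% higher. The 8 were 4 H2B genes (H2BC12, H2BC5, H2BC11 and H2BC6), 2 H4 genes (H4C9 and H4C8), H2AC6 and H3C10. H2BC6 could be tested only because its control counts were high, which favours a fall, and without it 7 of 29 tested members fell, with 3 of 11 in H2B and a median of -0.31 over all. At an adjusted p-value of 0.05 without a fold gate, edgeR's test had 11 members lower and 0 higher, against 8.77% and 11% of all genes. At an unadjusted p-value of 0.05 the counts were 15 and 0, against 15.3% and 16.8% of all genes. The median log2 fold change of the tested members was -0.37, against 0.0021 over all tested genes, and 26 of the 30 values were negative. In 14 tested members every C3 library lay below every control library, as in 16.9% of all tested genes, and in 0 members they lay above, as in 17.5%.

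**Figure D1:**
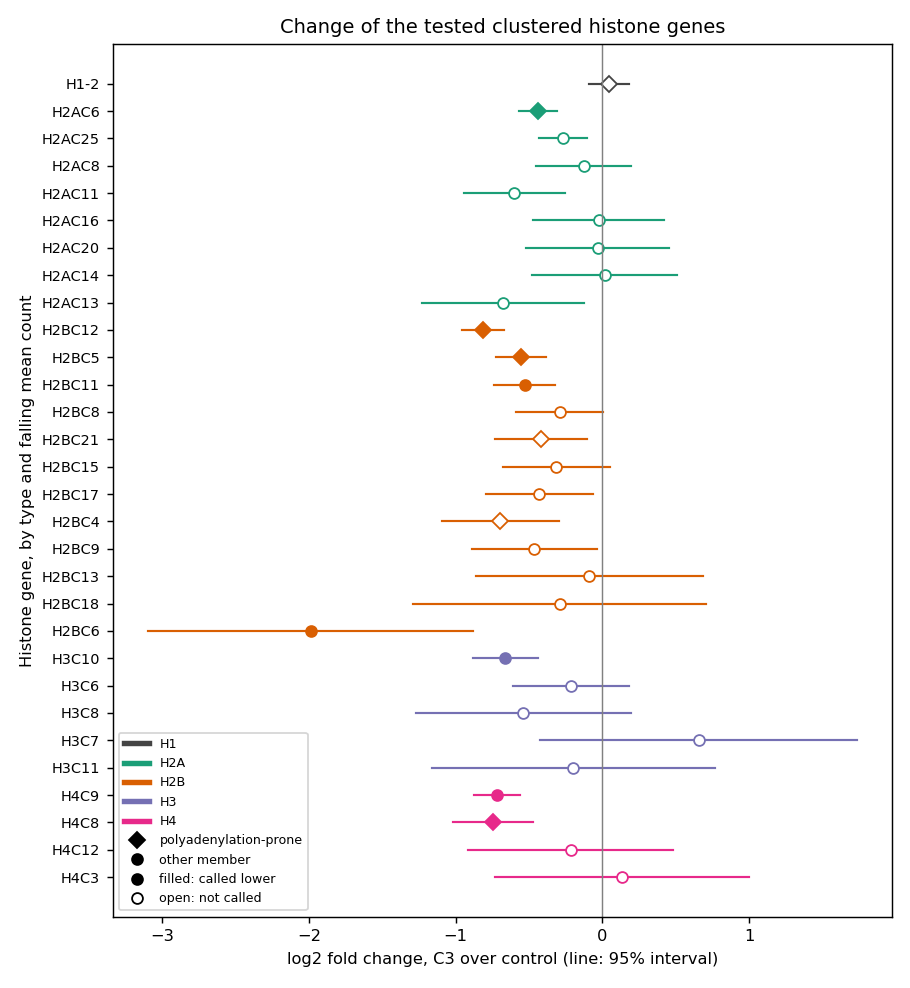
The log2 fold change (C3 over control, x axis) with its 95% interval is plotted for the 30 tested histone genes, ordered by type and falling mean count, with filled symbols for called genes and diamonds for genes listed as polyadenylation-prone. The 8 filled symbols all lie left of 0, and H1-2, at the top, lies at 0.04 with an interval from -0.09 to 0.18.

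Of the 12 tested H2B genes 4 were called, and H2BC12 had the largest difference in normalized counts of all members. H2BC12, a core histone H2B gene at chr6:27146361-27146855, had normalized counts of 5456, 5226 and 6019 in the control libraries and 2889, 3347 and 3252 in the C3 libraries. The groups did not overlap, and the lowest control library stood well above the highest C3 library. H2BC12 fell by 43.1%, a log2 fold change of -0.81 ± 0.07 (SE, edgeR adjusted p = 4.86e-09). Of its 50-base stretches 57.2% also occur in other genes, so its counts depend on how shared reads were assigned. H2BC5, another H2B gene, had 569, 604 and 629 in control and 401, 390 and 433 in C3 libraries, again without overlap, and fell by 0.55 ± 0.08 on the log2 scale (edgeR adjusted p = 2.58e-05). H2BC11 had 361, 313 and 365 against 236, 257 and 227, and fell by 0.53 ± 0.10 (edgeR adjusted p = 5.84e-04). Of the 50-base stretches of these 2 genes 5.95% and 4.77% are shared with other genes. H2BC6 had 13.7, 10.6 and 14.3 normalized counts in control and 4.55, 3.83 and 1.57 in C3 libraries. It was the least abundant called member, with a log2 fold change of -1.99 and a wide interval from -3.10 to -0.88 (edgeR adjusted p = 0.00988), and the call was lost when any C3 library was left out, with adjusted p-values in edgeR's test between 0.0115 and 0.0824, while without any of the control libraries it missed the count filter. Exons of other genes on the opposite strand cover 28.2% of H2BC6, and the strand setting of the counting is not given in the sources used here.

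The 8 other tested H2B genes were not called, and all had negative log2 fold changes. H2BC4 had 88.2, 89.1 and 99.1 normalized counts in control and 56.9, 41.2 and 70.6 in C3 libraries, with groups apart, and passed the adjusted p-value of 0.05 alone (log2 fold change -0.69 ± 0.19, edgeR adjusted p = 0.0125, or 0.093 without C3 replicate 2). Its exons overlap genes of the other strand over 30.9% of their length and share 27.0% of their 50-base stretches. H2BC21, on chromosome 1, had 143, 142 and 118 against 118, 99.5 and 87.8, which overlap narrowly (-0.42 ± 0.15, edgeR adjusted p = 0.0546). H2BC8 and H2BC17 had non-overlapping groups and log2 fold changes of -0.29 and -0.43, with edgeR adjusted p-values of 0.166 and 0.0904, and H2BC17 moved to -0.28 without control replicate 1. H2BC15 had overlapping groups and -0.31, which moved to -0.13 without control replicate 3 and to -0.48 without control replicate 2. The median of the 12 tested H2B genes was -0.45.

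Among the 8 tested H2A genes H2AC6 was called. This gene at chr6:26124145-26139116 had 2442, 2512 and 2552 normalized counts in control and 1873, 1893 and 1775 in C3 libraries. Both groups were tight and apart, and H2AC6 fell by 26.2% (log2 fold change -0.44 ± 0.06, edgeR adjusted p = 1.23e-05). H2AC25, a chromosome 1 gene, had 571, 615 and 597 against 526, 474 and 486, without overlap, and passed the adjusted p-value of 0.05 alone (-0.27 ± 0.08, edgeR adjusted p = 0.0188). H2AC11 had 104, 125 and 113 against 77.4, 87.1 and 62.7, also without overlap (-0.60 ± 0.17, edgeR adjusted p = 0.0122). Both missed 0.05 in edgeR's test when control replicate 2 or C3 replicate 3 was left out, and H2AC25 also without C3 replicate 2, with adjusted p-values from 0.0737 to 0.116. H2AC8 had 101, 163 and 144 against 123, 118 and 131, so that its C3 values lay within the control range. The median of the 8 genes was -0.20, and 7 of the 8 values were negative. It moved to -0.29 without control replicate 1 and to -0.12 without control replicate 2.

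Of the 4 tested H4 genes 2 were called. H4C9, at chr6:27139282-27139678, had 1060, 1064 and 1272 normalized counts in control and 715, 676 and 670 in C3 libraries. The groups were far apart, and H4C9 fell by 39.3% (log2 fold change -0.72 ± 0.08, edgeR adjusted p = 2.24e-07). H4C8 had 189, 195 and 209 against 100, 128 and 123, without overlap, and fell by 40.3% (-0.74 ± 0.13, edgeR adjusted p = 2.42e-04). Exons of the opposite strand cover 13.3% of H4C8. H4C12 and H4C3, at 22.3 and 12.8 normalized counts in control cells, had overlapping groups and values of -0.22 and 0.13. Of the 50-base stretches of H4C12 92.6% also occur in other genes, so its counts depend on how shared reads were assigned. Of the 5 tested H3 genes H3C10 was called. It had 309, 329 and 384 in control and 219, 227 and 201 in C3 libraries, without overlap, and fell by 36.7% (-0.66 ± 0.11, edgeR adjusted p = 9.02e-05). The other tested H3 genes (H3C6, H3C7, H3C8 and H3C11) had overlapping groups and values from -0.54 to 0.66.

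The linker histone gene H1-2, at chr6:26055740-26056470, was not called. It had 5645, 5752 and 6343 normalized counts in control and 5734, 6429 and 6117 in C3 libraries, and the groups overlapped over nearly their whole range. Its log2 fold change was 0.04 ± 0.07 (edgeR adjusted p = 0.693), and the 95% interval from -0.09 to 0.18 leaves out a fall of the size seen in the called members. As a description of the 2 most abundant members, chosen with their values known, the log2 ratio of H2BC12 to H1-2 counts within each library was -0.05, -0.14 and -0.08 in control and -0.99, -0.94 and -0.91 in C3 libraries.

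**Figure D2:**
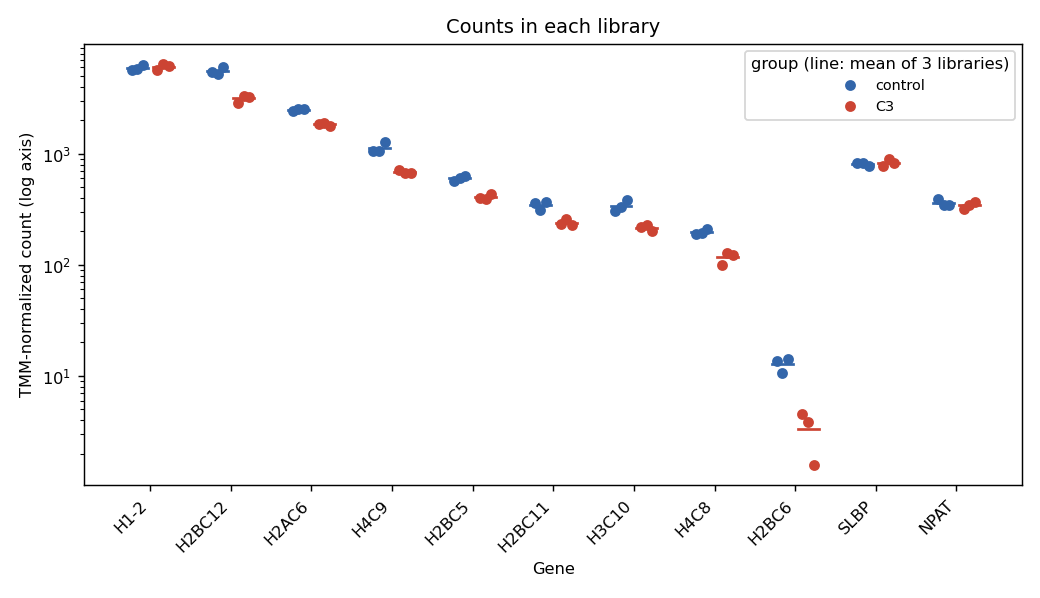
TMM-normalized counts (log y axis) of the called histone genes, H1-2, SLBP and NPAT are plotted for each library, with a line at the mean of the 3 libraries of a group. The control and C3 points are apart for the 8 called genes and overlap for H1-2, SLBP and NPAT.

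Counts were also summed over all members of a type. The H2B sum was 7224 ± 484 normalized counts in control and 4343 ± 215 in C3 libraries, a ratio of 0.601. The H4 sum was 1397 ± 130 against 862 ± 14.3 (ratio 0.617), the H3 sum 477 ± 37.5 against 335 ± 34.8 (0.702) and the H2A sum 3562 ± 143 against 2739 ± 85.5 (0.769). In each of these 4 types the groups did not overlap. The H1 sum, which is nearly all H1-2, was 5924 ± 377 against 6111 ± 339 (1.03), with overlapping groups. A few genes carry these sums, since H2BC12 held 77.0% of H2B counts, H2AC6 70.3% of H2A counts, H4C9 80.9% of H4 counts and H3C10 71.2% of H3 counts in control libraries. Without its leading gene each ratio was closer to 1, at 0.712 for H2B, 0.659 for H4, 0.842 for H2A and 0.876 for H3, and the H2A and H3 groups without it were apart and overlapping, respectively. The share of all histone counts taken by H1-2 was 31.8% ± 0.274 in control and 42.3% ± 0.921 in C3 libraries, and that of H2BC12 was 29.9% ± 0.834 in control and between 20.8% and 22.7% in C3 libraries. Together with H2AC6 and H4C9 the same genes held 81.3% and 81.9% of histone counts. All members summed to 18585 ± 1057 and 14391 ± 536 (ratio 0.774).

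**Figure D3:**
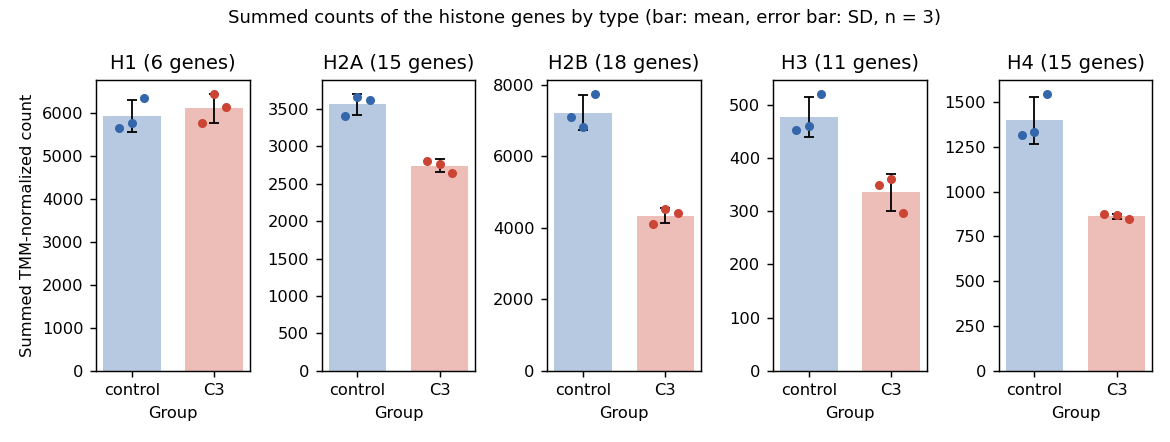
Summed TMM-normalized counts (y axis, a scale of its own for each panel, starting at 0) of all member genes of each histone type are drawn as bars for the mean, with SD error bars (n = 3) and points for the libraries. The C3 bars of H2A, H2B, H3 and H4 are lower than the control bars, and those of H1 are 5924 and 6111.

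The members listed as polyadenylation-prone, from general knowledge of genes that also give polyadenylated transcripts, were H1-2, H2AC6, H2BC4, H2BC5, H2BC12, H2BC21 and H4C8. All 7 were tested, and 4 fell, with a median log2 fold change of -0.55, where 1.47% of all tested genes were called lower. Of the other 23 tested members 4 fell (H4C9, H3C10, H2BC11 and H2BC6), with a median of -0.29, or 3 of 22 without H2BC6. The 7 listed genes summed to 15007 ± 833 and 11786 ± 582 normalized counts (ratio 0.785), and the other 58 members to 3577 ± 231 and 2604 ± 131 (ratio 0.728), so the order of these sums is not that of the medians. H1-2 lies in the listed set and accounts for much of its sum. Library preparation by poly(A) selection or by another route is not given in the sources used here, and gene counts do not separate the stem-loop form of a transcript from its polyadenylated form, so a change in total mRNA and a change in the share with a tail cannot be told apart.

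Annotation gave another division. GENCODE or RefSeq carries a transcript at least 100 bases past the stem-loop for 17 members, of which 12 were tested and 7 fell (H2BC12, H2AC6, H2BC5, H3C10, H2BC11, H4C8 and H2BC6), with a median of -0.54. Another 45 members end at the stem-loop in both annotations, of which 17 were tested and H4C9 alone fell, with a median of -0.20. H1-2 belongs to the second set, and it has the polyadenylation signal AATAAA 13 bases after its stem-loop. H2BC5 has AATAAA at the same distance. In H2AC6 the first AATAAA lies 746 bases on, in H4C9 946 and in H2BC12 1553. By form of the stem-loop, 3 of the 5 tested members with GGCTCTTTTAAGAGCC fell (median -0.55), and 3 of the 18 with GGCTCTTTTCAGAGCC (median -0.29). With the octamer in the promoter 4 of 15 tested members fell (median -0.43), and without it 4 of 13 (median -0.31). Without H2BC6 the count was 6 of 11 for the members annotated past the stem-loop, 2 of 17 for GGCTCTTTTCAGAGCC and 3 of 14 for the octamer. Over all tested genes 1.47% were called lower. Calls also depend on the size of the counts. Of the 17 tested members that end at the stem-loop, only H1-2 and H4C9 averaged more than the 130 normalized counts of H2AC8. Every called member but H2BC6 averaged at least 157, the value of H4C8. The divisions thus differ in how readily their members can be called. These divisions were made with results known and the differences between them were not tested.

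Genomic position was the last division. The members lie in 3 stretches of chromosome 6 and 2 of chromosome 1, with a lone gene on chromosome 12. The stretch chr6:27125897-27147562 holds 5 members (H2AC11, H2AC12, H2BC11, H2BC12 and H4C9), of which 4 were tested and 3 fell, with a median of -0.66. In chr6:25723397-26285638, with 32 members, 4 of 13 tested fell (median -0.44, or 3 of 12 without H2BC6), and in chr6:27807479-27893891, with 16 members, 1 of 9 (median -0.22). In chr1:149782689-149887965, with 9 members, 0 of 3 tested fell (median -0.29). Over all tested genes 1.47% were called lower. In chr6:27807479-27893891 and chr1:149782689-149887965 every tested member but H3C10 averaged at most 118 normalized counts. Every called member but H2BC6 averaged at least 157, so calls could be made less readily in these stretches. H2A and H2B genes often share a promoter, and 12 such pairs start between 170 and 251 bases apart. Partners could differ widely in level, as for H2BC12 at 604 and H2AC12 at 1.19 on the per-length scale in control cells, or H2AC6 at 80.6 and H2BC4 at 1.72. In the pair H2AC11 and H2BC11 levels were 12.4 and 17.8 and the log2 fold changes -0.60 and -0.53. H2AC8 and H2BC8 had levels of 14.2 and 14.8 and log2 fold changes of -0.13 and -0.29, neither of which was called. H2AC13 and H2BC13 had estimates further apart, at -0.68 and -0.09, as did H2AC20 and H2BC21, at -0.03 and -0.42. None of these genes was called. Their intervals overlapped within each pair. They ran from -1.23 to -0.12 for H2AC13 and -0.86 to 0.69 for H2BC13. Those of H2AC20 and H2BC21 ran from -0.52 to 0.45 and -0.73 to -0.10. Differences within pairs were not tested. Of the 50-base stretches of H2AC13 and H2AC20, 63.45% and 23.37% also occur in other genes. The counts of H2AC13 and H2AC20 thus depend on how shared reads were assigned. The values of H2AC6 and H2BC4 were -0.44 and -0.69, and of this pair H2AC6 alone was called.

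**Figure D4:**
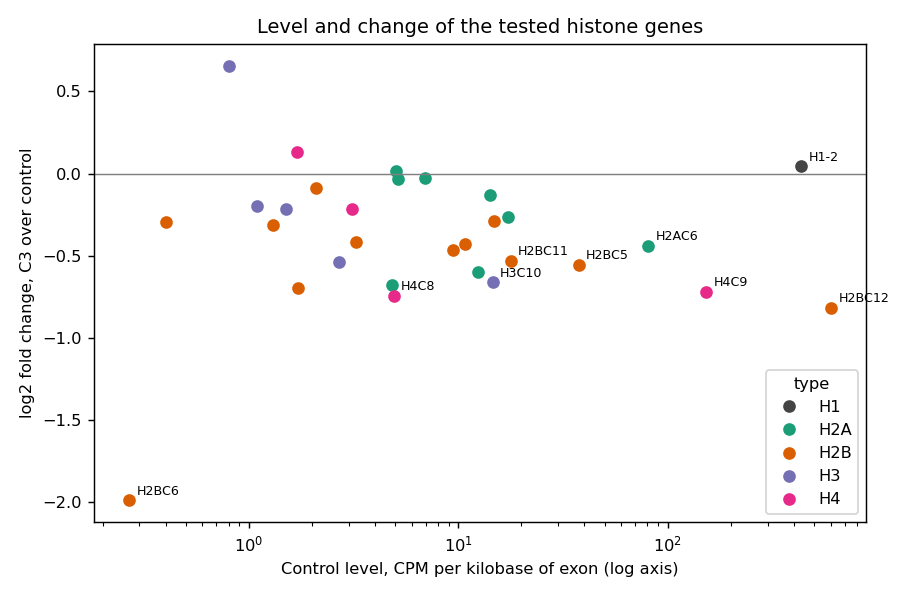
The log2 fold change (C3 over control, y axis) of the tested histone genes is plotted against their level in control cells (CPM per kilobase of exon, log x axis), coloured by type, with names for called genes and H1-2. H2BC12 and H1-2 have the highest levels, 604 and 434, and lie at -0.81 and 0.04.

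SLBP and NPAT were not called. SLBP, whose protein binds the stem-loops shown above, had 828, 821 and 775 normalized counts in control and 784, 892 and 823 in C3 libraries. The groups overlapped, and the log2 fold change was 0.04 with a 95% interval from -0.10 to 0.19 (edgeR adjusted p = 0.726; exact two-sided permutation p = 0.5). NPAT had 393, 346 and 346 against 321, 349 and 367, again overlapping, with -0.06 and an interval from -0.26 to 0.13 (edgeR adjusted p = 0.70; exact two-sided permutation p = 0.6). The signs of both depend on the libraries or scaling used.

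Among the 9 genes of the histone locus body and histone transcription, all tested, 1 rose and 1 fell, where 5.05% and 1.47% of all tested genes did. CASP8AP2, which encodes the locus body protein FLASH, had 354, 359 and 356 in control and 454, 529 and 530 in C3 libraries, and rose by 0.51 ± 0.09 on the log2 scale (edgeR adjusted p = 1.9e-04). HINFP, a transcription factor of H4 genes, had 627, 600 and 619 against 514, 432 and 452, and fell by 0.40 ± 0.08 (edgeR adjusted p = 9.66e-04). The groups of both genes were apart, in opposite directions. POU2F1 was higher at an adjusted p-value of 0.05 alone, by 0.26 (edgeR adjusted p = 0.0157), and GON4L passed the adjusted p-value of 0.01 but not the fold gate, at 0.35 (edgeR adjusted p = 0.00259). None of the 8 tested genes of histone 3′ processing was called by edgeR, at either adjusted p-value, and the U7 RNA gene RNU7-1 had no counts. None of the 8 tested genes of histone mRNA decay was called, and ERI1, a nuclease that trims the histone stem-loop, had -0.19 (edgeR adjusted p = 0.0436). Of 15 tested histone chaperone genes 0 were called, and HAT1 and ATRX passed the adjusted p-value of 0.05 alone with -0.24 and 0.26 (edgeR adjusted p = 0.0262 and 0.037).

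Replacement variants, whose mRNAs mostly carry a poly(A) tail, and S phase genes were read beside the clustered genes. Of the 11 tested variants H2AX, H2AZ2 and H3-3A were lower at an adjusted p-value of 0.05, as were 8.77% of all tested genes. They did not pass the fold gate, with -0.31, -0.22 and -0.23 (edgeR adjusted p = 0.00117, 0.0144 and 0.0131). The median of the 11 variants was -0.09, with 4 values positive and 7 negative. Of 39 tested S phase genes edgeR called 0, where 1.47% of all tested genes were called lower and 5.05% higher, and their median was -0.03. At an adjusted p-value of 0.05 without a fold gate 4 were lower (PCNA, RRM1, RRM2 and UNG, between -0.21 and -0.28) and 0 higher, against 8.77% and 11% of all tested genes. The summed level of the S phase list was 5081 to 5228 CPM in control and 4886 to 5229 in C3 libraries, so the sums overlapped while those of the clustered histones, at 962 to 1064 against 746 to 803, did not.

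Library totals ranged from 16159449 to 22821722 counts, and the clustered histones took 0.0972% ± 0.00473 of counts in control and 0.0792% ± 0.00498 in C3 libraries. Of 15 RNAs made without a poly(A) tail 11 had no counts, and the list summed to 8.72 to 16.1 CPM in control and 10.3 to 27.4 in C3 libraries. Its single tested gene RN7SL2, which shares all of its exon bases with another annotated gene, had 0.81 (edgeR adjusted p = 0.0117) with overlapping groups. Megakaryocyte markers summed to 2170 to 2293 against 2090 to 2265 CPM, with PF4 and GP1BB at 0 in every library and 2 of 14 tested called lower (GP1BA and TUBB1, log2 fold changes -0.49 and -1.36), where 1.47% of all genes were. The median of these 14 was -0.07, 6 of them were positive, and at an adjusted p-value of 0.05 edgeR had 3 lower and 1 higher. Erythroid markers (12 genes) summed to 82.2 to 90.9 against 93.5 to 97.0, lymphoid markers (10 genes) to 14.2 to 15.3 against 15.2 to 20.7, and granulocyte and monocyte markers (10 genes) to 48.7 to 50.9 against 38.9 to 40.4, with LYZ lower (-0.51). The part of these differences in the histone results was not tested, and in bulk RNA fewer cells in S phase and less histone mRNA per cell cannot be told apart.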

How the data were processed

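RNA of Meg-01 cells was sequenced in 3 control and 3 C3 libraries. The authors processed reads with fastp, STAR (2.6.1d) and featureCounts (1.5.0-p3) on GRCh38, per the labels, and deposited raw counts per gene. Not given in the sources used here are the annotation release, strand setting, treatment of reads with several matches, poly(A) selection and read length. Identifiers were matched to GENCODE release 44, and 58207 of 58735 had a symbol. Of 69 symbols that meet the rule, 4 (H2AC18, H2AC19, H3C2 and H3C3) had no row under their identifiers and were not analysed here. A gene was tested if 3 or more libraries held 10 or more counts (15078 genes). The groups were compared in edgeR 4.0.16 (R 4.3.3) by its quasi-likelihood test, with TMM factors and Benjamini-Hochberg adjustment over all tested genes. To normalize, each count was divided by its library's effective size and multiplied by the mean effective size. Levels per length use merged GENCODE exons. The methods were tested on simulated data.

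Named are all called members, the 15 tested members with the most counts, the polyadenylation-prone members, SLBP, NPAT and called genes of the other lists, and further names were chosen after their values were seen. Members and lists were chosen with earlier results of these data known. The lists were written from general knowledge, and a gene of the replacement variant list is not reported here. Alternatives were DESeq2 (1.42.0), limma-voom (limma 3.58.1), scaling by RLE factors or by library size alone, omitting the count filter or raising it to a mean of 50, a replicate block, GC (with and without the block) and length corrections, thinning to the smallest total, other gates and each library left out.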

Additional observations from a re-analysis of the deposited data

How the results depend on the processing

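The number of members called lower was 8 and ranged from 6 (library size alone) to 11 (an adjusted p-value of 0.05 without a fold gate) over 20 alternatives, and none was called higher in any of them. Leaving out H2BC6, an alternative chosen after seeing the data, gave 7. With the replicate block 10 members were called lower. The replicate numbers were not taken to pair the libraries, since the correlations of same-numbered libraries across genes were 0.134, -0.08 and 0.0872. H2BC12, H4C9, H2BC5, H3C10, H2BC11 and H4C8 stayed called lower under the 17 alternative fits. H2AC6 missed the fold gate under library size alone (-0.36), which moves the median of all genes to 0.08. H2BC6 kept its call in 4 of these fits and lost it in 7. In another 5 (a mean count of at least 50, thinning and each control library left out) it missed the filter, and DESeq2 gave it no adjusted p-value. H2BC4 was called in 6 alternatives and H2AC11 in 5. The median of all tested members was -0.28 without a count filter, and that of the H2A members -0.07. The H4 median, over few genes, was -0.39 under library size alone, -0.41 without a filter, -0.72 with a mean count of at least 50, -0.40 after thinning and between -0.57 and -0.40 with a library left out. The median of the polyadenylation-prone members was -0.48 under library size alone and between -0.60 and -0.51 with a library left out. SLBP reversed to -0.0044 without C3 replicate 2, and with a library left out ranged to 0.086. NPAT reversed to 0.013 under library size alone and to 0.017 without control replicate 1, and with a library left out ranged from -0.11. H2AC8 reversed to 0.030 without control replicate 2 and ranged down to -0.30 without control replicate 1. None of these reversed values passed a threshold, and the cause was not tested. For members near 10 counts, counting error limits what can be seen.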
